A study of Mus musculus with 6 samples.

Results

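The transcription factors Gata3, Rora, Tbx21, Eomes, Id2, Tcf7, Lef1, Runx3 and Bcl11b, which direct the development of T cells and innate lymphoid cells, were followed by RNA sequencing in colonic B cells purified from mice. They were taken by gene symbol, and all 9 were found among the 20591 symbols of the expression table. The mice had received lenvatinib, an inhibitor of the receptor tyrosine kinases for VEGF and FGF and of some related kinases, or DMSO, its solvent, with 3 libraries for each treatment. The labels name the cells as B cells and give the treatment. Strain, age, sex, dose, duration, state of inflammation, the sorting gate and the number of animals behind a library are not stated in the sources used here. The libraries are numbered as biological replicates without being tied to separate animals, so the p-values rest on library-to-library spread that could be technical in origin.

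T cells and innate lymphoid cells, a family that includes natural killer cells, arise from lymphoid progenitors that B cells share. The factors below act in the development of these cells or in the later choice of their subsets. Tcf7 and Lef1, paired HMG-box proteins that act with beta-catenin, start and maintain the T cell programme, and Tcf7 also marks innate lymphoid progenitors. Bcl11b commits precursors to the T cell lineage, Gata3 directs helper type 2 and innate lymphoid group 2 fates together with Rora, and the T-box factors Tbx21 (T-bet) and Eomes direct natural killer, cytotoxic and interferon gamma-producing fates. Runx3 favours the CD8 lineage and cytotoxic lymphocytes, and Id2 binds E proteins and keeps them from DNA.

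The levels of 8 of the 9 factors lay higher in every lenvatinib library than in any DMSO library, and the exception was Eomes. Among all 19715 genes with any value, 13.5 percent showed such a separation in this direction. Among genes with a mean scaled FPKM of 0.1 to 1 the share was 13.8 percent, and in that band stood 5 of the factors, of which 4 were separated. FPKM is the number of fragments per kilobase of gene, divided by the size of the library, and scaled FPKM is that value after a small correction per library. Id2 and Runx3 were abundant in both groups, Tcf7, Tbx21 and Lef1 stood between 0.524 and 3.89 scaled FPKM, and Gata3, Eomes, Bcl11b and Rora stayed below 1 in every library. In bulk libraries, more cells of a type and more RNA per cell cannot be told apart.

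**Figure D1:**
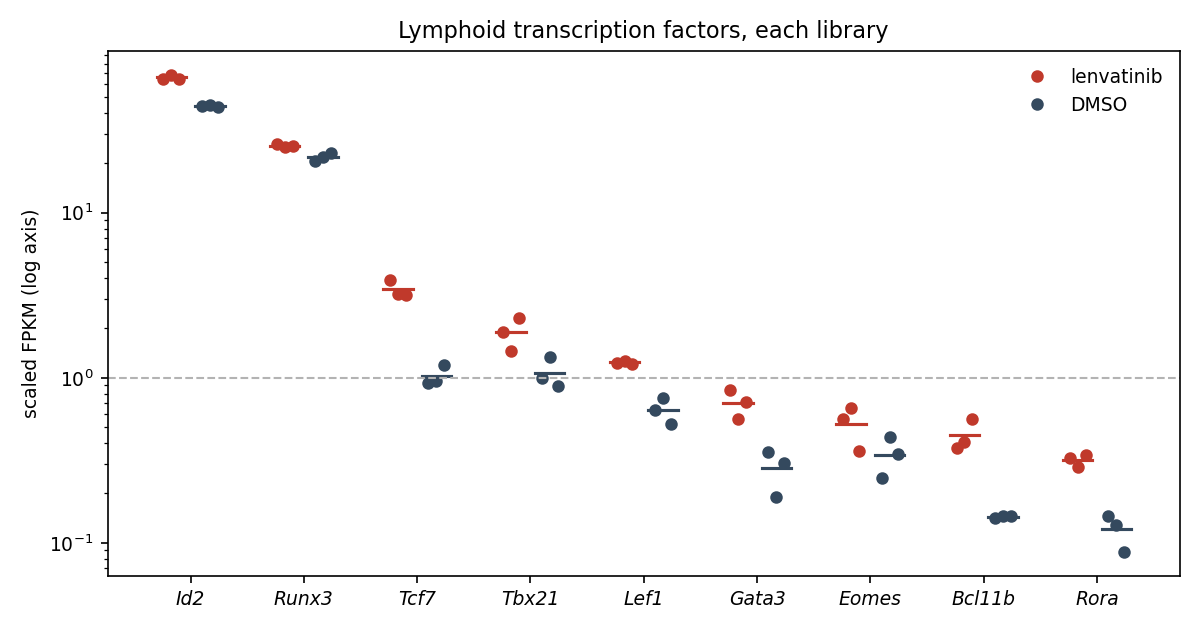
Scaled FPKM of the 9 factors in each library, on a log axis, with lenvatinib in red and DMSO in dark blue, 3 points for each group, a bar at the group mean and a dashed line at 1. The lenvatinib points lie above all DMSO points for every factor except Eomes, and the levels span from about 66 for Id2 to about 0.12 for Rora.

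The test, limma on log2(scaled FPKM + 1), took in the 9937 genes that reached 1 scaled FPKM in 3 or more libraries. Of these, 1038 were called higher and 816 lower in the lenvatinib group (859 and 978 with scaling to the sum of FPKM). In all, 18.7 percent passed an adjusted p of 0.05, and 10.4 percent passed with a higher level in the lenvatinib group. The filter admitted 5 of the 9 factors, and 4 of those were called higher and 0 lower. The count was 2 without lenvatinib replicate 1, lenvatinib replicate 3, DMSO replicate 1 or DMSO replicate 2. The 4 calls carry a condition, since Tcf7 and Tbx21 each had 1 DMSO library at 1 or more and Lef1 had 0, so these genes were tested only because their lenvatinib libraries were high. Id2 and Runx3 passed the filter in all libraries of both groups.

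The libraries were checked for other cells with lists of marker genes. The defining B cell genes were high in all 6 libraries, with Cd79a, which carries signals from surface immunoglobulin, between 788 and 826 scaled FPKM in lenvatinib libraries and between 1011 and 1053 in DMSO libraries. The summed level of 6 B cell markers was 1833 to 1870 in lenvatinib libraries and 2212 to 2268 in DMSO libraries, and all 6 fell. The summed level of the 9 T cell markers found in the table was 130 to 134 in lenvatinib libraries and 43.8 to 47.5 in DMSO libraries, and 5 of the 8 tested rose. For 8 markers of natural killer cells and group 1 innate lymphoid cells, Eomes among them, the sums were 83.5 to 88.8 in lenvatinib libraries and 17.6 to 20 in DMSO libraries, and all 6 tested rose, of which Klrb1c had 0 and Klrk1 had 2 DMSO libraries at 1 scaled FPKM or more. For 8 colon epithelial markers they were 52.8 to 55.3 in lenvatinib libraries and 12.6 to 13.2 in DMSO libraries. All 6 tested rose, but Krt8, Krt19 and Cdh1 had 0 DMSO libraries at 1 or more and Car1 had 2, so these entered the test through their lenvatinib libraries. The summed levels of T cell, natural killer and epithelial markers thus moved with the factors described below, and their part in each result was not tested. Sums for 6 macrophage and dendritic cell markers were 37.2 to 44.1 in lenvatinib and 31.8 to 33.6 in DMSO libraries. For 4 plasma cell markers they were 119 to 130 in lenvatinib and 101 to 107 in DMSO libraries. In each of these 2 lists 1 of 4 tested genes rose. Sums for 4 endothelial markers were 33.3 to 33.5 in lenvatinib and 42.2 to 43 in DMSO libraries. The read totals that FPKM was divided by, recovered from the FPKM steps, were 26635279 to 31655500 per library.

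Sequence context was taken from RefSeq for the GRCm38.p6 build, which is not the authors' build, as windows from 250 bases before to 50 bases after each annotated start site. All 9 factors matched, with 14 windows in all. Each window was searched on both strands for words bound by the factors themselves or, for Id2, by its E protein partners. The words were CTTTGA for TCF/LEF, TGTGGT or TGCGGT for RUNX, AGATAA or TGATAA for GATA, AGGTGTGA for T-box factors and CAGCTG or CAGGTG for E proteins. Of the 14 windows, 3 held a TCF/LEF, RUNX, GATA or T-box word, and these 3 are shown as the windows that hold a word bound by a factor of the group. The Runx3 and Lef1 windows shown each hold a word of the gene's own family. Capitals mark the words found.
Runx3, chr4:135120395-135120694, plus strand: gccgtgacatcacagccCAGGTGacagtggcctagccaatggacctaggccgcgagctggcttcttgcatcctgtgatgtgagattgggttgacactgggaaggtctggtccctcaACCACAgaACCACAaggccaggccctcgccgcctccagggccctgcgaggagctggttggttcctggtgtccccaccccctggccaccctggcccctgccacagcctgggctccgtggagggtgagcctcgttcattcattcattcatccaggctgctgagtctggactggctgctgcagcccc
Lef1, chr3:131156044-131156343, plus strand: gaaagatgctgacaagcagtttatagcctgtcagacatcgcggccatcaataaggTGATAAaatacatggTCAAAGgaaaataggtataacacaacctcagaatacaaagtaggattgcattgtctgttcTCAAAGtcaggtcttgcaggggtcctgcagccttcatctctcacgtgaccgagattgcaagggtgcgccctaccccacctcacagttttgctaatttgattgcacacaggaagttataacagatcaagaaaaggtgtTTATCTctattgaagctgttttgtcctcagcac
Bcl11b, chr12:108003365-108003664, minus strand: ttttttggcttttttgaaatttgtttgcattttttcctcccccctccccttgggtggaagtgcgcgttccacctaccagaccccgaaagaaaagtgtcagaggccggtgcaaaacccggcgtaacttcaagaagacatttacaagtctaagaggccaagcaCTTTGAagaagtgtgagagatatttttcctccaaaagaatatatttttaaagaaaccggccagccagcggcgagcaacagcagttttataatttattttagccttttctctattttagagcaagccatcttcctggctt

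The Runx3 window holds a tandem pair of RUNX words, read on the opposite strand, that begin 134 and 126 bases before the start, and an E-box at 233 bases before it. Another Runx3 window, chr4:135152295-135152594, held none of the words. The Lef1 window is one of 4 for that gene and holds TCF/LEF words at 180 and 120 bases before the start and a GATA word on either side of it. The Bcl11b window holds 1 TCF/LEF word at 89 bases before the start. Of 32851 windows of the same length in the table, 22.4 percent held a RUNX word, 16 percent a TCF/LEF word, 18.6 percent a GATA word, 1.28 percent the T-box word and 32.9 percent an E-box word, so these matches are common and describe the letters only. An E-box word stood in 8 of the 14 windows, among them those of Id2, Tbx21 and Gata3.

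Tcf7, the HMG-box factor that starts the T cell programme, had the largest change of the tested factors. Its scaled FPKM was 3.89, 3.24 and 3.17 in lenvatinib libraries, against 0.927, 0.958 and 1.2 in DMSO libraries. The groups were far apart, with 1576, 1196 and 1114 reads in lenvatinib libraries and 311, 378 and 458 reads in DMSO libraries. The means were 3.43 ± 0.4 in lenvatinib and 1.03 ± 0.151 in DMSO libraries (SD, n = 3 each), a 3.34-fold difference. On the log2(scaled FPKM + 1) scale the change was 1.13 (SE 0.12, limma adjusted p = 0.000203), and it passed in all 16 alternatives in which it was tested.

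Lef1, the close relative of Tcf7 in the HMG-box family, was lower in level and changed less. It stood at 1.23, 1.26 and 1.22 scaled FPKM in lenvatinib libraries and at 0.638, 0.749 and 0.524 in DMSO libraries. The lenvatinib libraries were nearly equal to each other and the groups did not overlap. The log2 change was 0.45 (SE 0.12, limma adjusted p = 0.0331), from 177, 166 and 152 reads in lenvatinib libraries and 76, 105 and 71 in DMSO libraries. This call was lost whenever any library was left out, with adjusted p between 0.0507 and 0.0974, and over all 16 alternatives the adjusted p ran from 0.00699 to 0.0974.

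Id2, the inhibitor of E proteins that all innate lymphoid cells require, was the most abundant factor by FPKM. Its scaled FPKM was 64.4, 68.7 and 64.9 in lenvatinib libraries, against 44.6, 45.2 and 43.5 in DMSO libraries. Replicates were close in both groups, with 66 ± 2.32 in lenvatinib and 44.4 ± 0.869 in DMSO libraries (SD, n = 3 each). The log2 change was 0.56 (SE 0.041, limma adjusted p = 2.52e-05), and Id2 passed in all 17 alternatives. In absolute terms this was a gain of 21.6 scaled FPKM, beside gains of 3.77 for Runx3 and 2.4 for Tcf7. The size and order of these gains depend on the gene length behind FPKM.

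Runx3, the Runt-domain factor of CD8 and cytotoxic lymphocytes that B cells also express, had the smallest fold of means of the 9 factors. Its absolute gain in scaled FPKM was second to that of Id2, a rank that depends on the gene length behind FPKM. It stood at 25.9, 25.2 and 25.5 scaled FPKM in lenvatinib libraries and at 20.6, 21.6 and 23.1 in DMSO libraries. The groups did not overlap, and the DMSO libraries were spread more widely than the lenvatinib libraries. The log2 change was 0.22 (SE 0.055, limma adjusted p = 0.0213). Without a single library it ended on either side of the threshold, from 0.0178 without DMSO replicate 3 to 0.0717 without DMSO replicate 1, and it passed in 12 of 17 alternatives, whose adjusted p ran from 0.00167 to 0.0717.

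Tbx21, which encodes T-bet and drives interferon gamma production, did not pass the test. Its scaled FPKM was 1.91, 1.45 and 2.31 in lenvatinib libraries, against 0.994, 1.34 and 0.888 in DMSO libraries. The lowest lenvatinib library stood just above the highest DMSO library, and the lenvatinib libraries were spread widely. The log2 change was 0.47 (SE 0.15, limma adjusted p = 0.0541), with adjusted p between 0.0403 and 0.163 over 16 alternatives, of which 3 passed.

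The factors under the filter had no test of their own in that fit, and their values are a description. Bcl11b, the T lineage commitment factor, stood at 0.375, 0.408 and 0.564 scaled FPKM in lenvatinib libraries and at 0.141, 0.145 and 0.145 in DMSO libraries. The DMSO libraries were nearly identical, with 48, 58 and 56 reads, against 154, 153 and 201 reads in lenvatinib libraries. Gata3 stood at 0.848, 0.561 and 0.71 scaled FPKM in lenvatinib libraries and at 0.357, 0.189 and 0.306 in DMSO libraries, a 2.49-fold difference of means. Its reads were 106, 64 and 77 in lenvatinib libraries and 37, 23 and 36 in DMSO libraries, so counting error is large beside the higher factors.

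Rora, a nuclear receptor of group 2 innate lymphoid cells, stood at 0.327, 0.289 and 0.339 scaled FPKM in lenvatinib libraries and at 0.146, 0.129 and 0.0882 in DMSO libraries. It was the lowest of the factors by FPKM, yet its reads were not few, 539, 436 and 486 in lenvatinib libraries and 199, 207 and 137 in DMSO libraries. Eomes, the T-box factor of natural killer and memory CD8 cells, stood at 0.561, 0.652 and 0.362 scaled FPKM in lenvatinib libraries and at 0.246, 0.436 and 0.343 in DMSO libraries. Its groups overlapped, because lenvatinib replicate 3 lay below DMSO replicate 2.

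Dropping the filter brought these 4 factors into the fit. With limma on log2(scaled FPKM + 1) and no filter, 3 of the 9 factors were called, Tcf7, Id2 and Lef1, where 3.65 percent of 19715 genes were called higher. Under that setting the adjusted p was 0.0748 for Bcl11b, 0.0805 for Gata3, 0.129 for Rora and 0.454 for Eomes. With limma-voom on the reads worked out from the FPKM steps, also without a filter, 6 of the 9 were called, where 5.73 percent of 19714 genes were called higher. There Bcl11b had a log2 change of 1.6 (SE 0.34, limma-voom adjusted p = 0.00575) and Rora one of 1.43 (SE 0.2, limma-voom adjusted p = 0.000177). Gata3, with 1.36 (SE 0.44, limma-voom adjusted p = 0.068), Eomes, with 0.6 (adjusted p = 0.523), and Tbx21, with 0.8 (adjusted p = 0.137), did not pass. These voom fits were chosen after seeing the data.

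Folds of the factors are listed beside those of T cell and natural killer markers, which ran from 0.79 to 6.09. That span also holds unchanged genes, so lying within it says nothing particular about the factors. The T cell receptor chain gene Cd3e stood at 15.6, 16.2 and 15.7 scaled FPKM in lenvatinib libraries and at 2.35, 2.65 and 2.79 in DMSO libraries, a 6.09-fold difference of means. The largest fold among the factors was that of Tcf7, at 3.34, followed by Bcl11b at 3.13, Rora at 2.64 and Gata3 at 2.49. Lef1 followed at 1.94, Tbx21 at 1.76, Eomes at 1.54, Id2 at 1.49 and Runx3 at 1.17. The natural killer genes Klrd1 and Nkg7 had folds of 5.84 and 4.63, above all 9 factors. Other listed markers were below several factors, with folds of 2.29 for Cd247, 1.56 for Lck, 1.43 for Prf1, 1.09 for Cd5, 1.02 for Cd4 and 0.79 for Cd8b1.

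**Figure D2:**
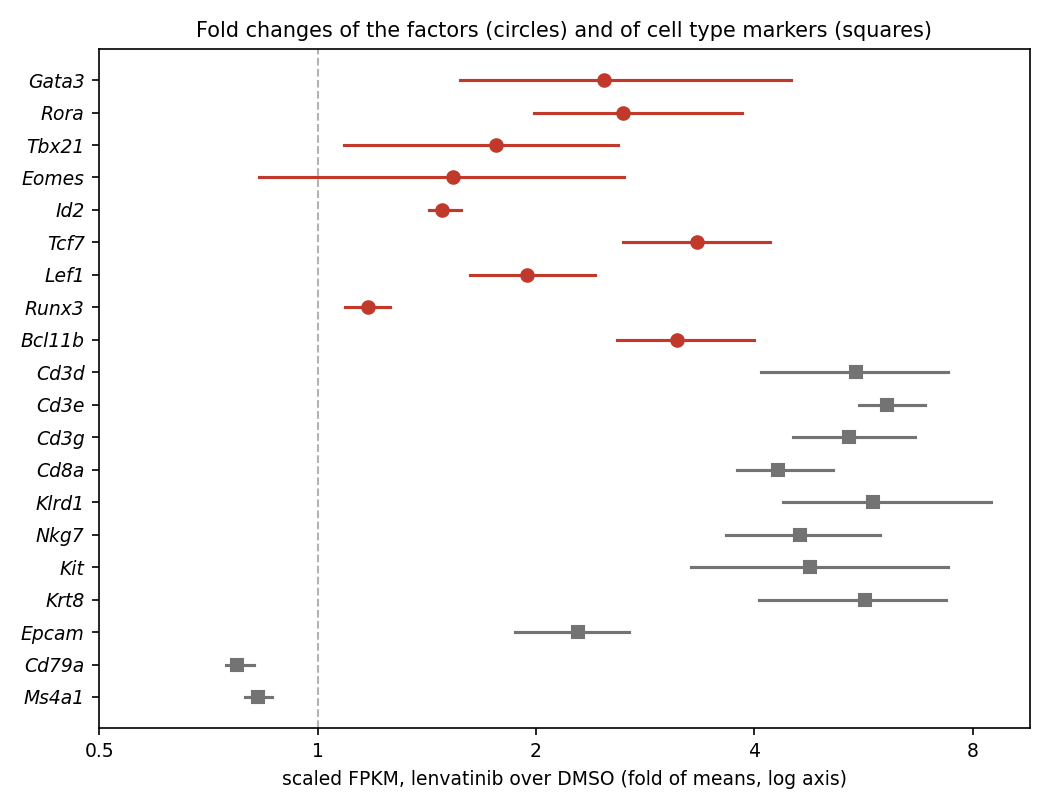
Fold of group means of scaled FPKM, lenvatinib over DMSO, on a log axis, for the 9 factors (red circles) and for 11 cell type markers (grey squares). Lines run from the lowest lenvatinib over the highest DMSO library to the highest over the lowest; the line of Eomes crosses 1, the factors lie between 1.17 and 3.34 and Cd3e at 6.09.

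Each factor was also divided by Cd3e in the same library. All 9 factors had lower ratios in every lenvatinib library than in any DMSO library, but so did 98.7 percent of the 9937 tested genes, so these separations say nothing particular about the factors and no test of them is given. A gene with equal means in both groups would have in lenvatinib libraries a ratio of 0.164 of that in DMSO libraries. The factors lay between 0.192, for Runx3, and 0.549, for Tcf7. For Tcf7 the ratio was 0.25, 0.2 and 0.202 in lenvatinib libraries and 0.395, 0.361 and 0.431 in DMSO libraries.

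Pairs of related factors were compared within each library, as differences of log2(scaled FPKM + 1), with p-values adjusted over 7 pairs, of which 6 are described. With 3 libraries per group, the smallest exact permutation p is 0.1, so no pair could pass the threshold. The p-values of the pairs therefore cannot decide whether a shift is present, and the shifts are a description. Tcf7 minus Lef1 was 1.13, 0.9 and 0.91 in lenvatinib libraries and 0.23, 0.16 and 0.53 in DMSO libraries, a shift of 0.67 (exact permutation p = 0.1, adjusted p = 0.14). Runx3 minus its relative Runx1 was 1.84, 1.79 and 1.77 in lenvatinib libraries and 1.19, 1.39 and 1.29 in DMSO libraries, a shift of 0.51. The groups did not overlap for either pair, but Tcf7 and Runx3 were each separated on their own. Runx1, a Runt-domain factor of blood progenitors, itself fell to 6.62 ± 0.134 scaled FPKM in lenvatinib libraries, against 8.31 ± 0.616 in DMSO libraries (log2 change −0.29, SE 0.076, limma adjusted p = 0.0292).

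Bcl11b minus Bcl11a shifted by 0.61, and Bcl11a, a factor that B cell development requires, fell to 7.8 ± 0.4 scaled FPKM in lenvatinib libraries, against 9.61 ± 0.176 in DMSO libraries (log2 change −0.27, SE 0.068, limma adjusted p = 0.0229). Id2 minus Id3 shifted by 0.64, with Id3, the other lymphoid inhibitor of E proteins, at 32.1 ± 2.53 in lenvatinib and 33.9 ± 3.29 in DMSO libraries (log2 change −0.08, SE 0.077, limma adjusted p = 0.545). The groups did not overlap for either of these pairs, each with an exact permutation p of 0.1, the smallest possible, and an adjusted p of 0.14.

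The T-box pair and the pair of opposed helper factors overlapped between the groups. Eomes minus Tbx21 averaged −0.92 ± 0.355 in lenvatinib and −0.62 ± 0.116 in DMSO libraries (exact permutation p = 0.3, adjusted p = 0.35). Gata3 minus Tbx21 averaged −0.75 ± 0.173 in lenvatinib and −0.69 ± 0.25 in DMSO libraries (exact permutation p = 0.6, adjusted p = 0.6), and the sign of that small shift changed when lenvatinib replicate 3, DMSO replicate 1 or DMSO replicate 3 was left out (0.03, 0.00083 and 0.01).

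**Figure D3:**
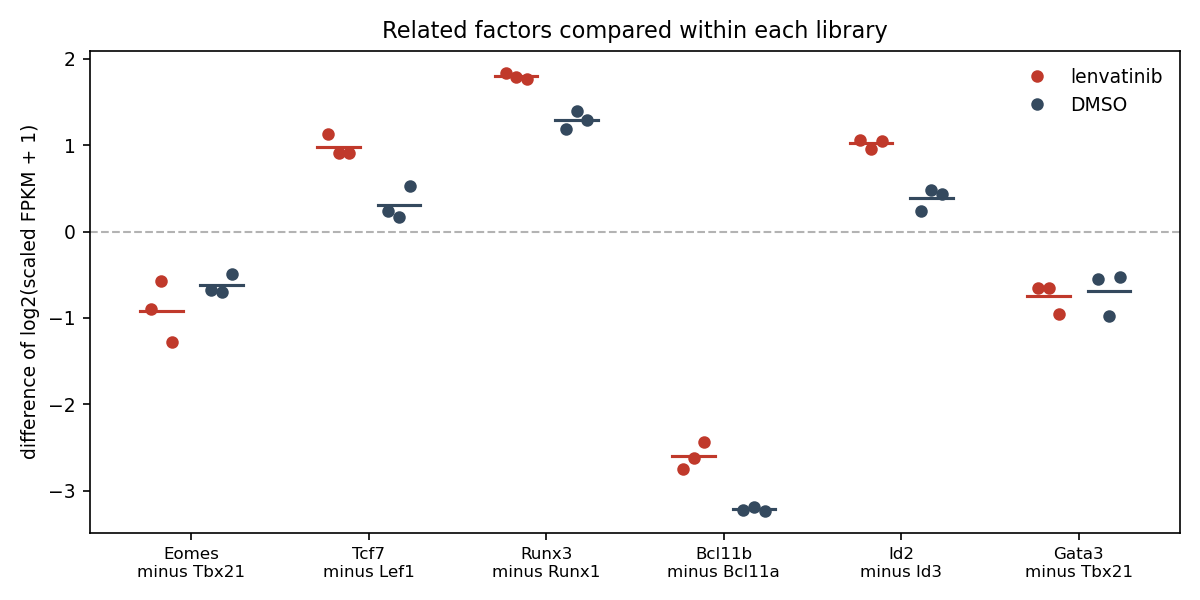
Difference of log2(scaled FPKM + 1) between 2 related factors in each library, with lenvatinib in red and DMSO in dark blue, 3 points per group and a bar at the mean. The groups separate for 4 of the 6 pairs shown, with the lenvatinib libraries higher, and overlap for Eomes minus Tbx21 and Gata3 minus Tbx21. The first factor of each separated pair was itself separated, and the share of all gene pairs that separate was not computed.

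Other transcription factors of T cells and innate lymphoid cells moved in both directions. Of 25 listed, 24 were in the table and 19 were tested, of which 3 rose and 5 fell, where 10.4 percent of all tested genes rose and 8.21 percent fell. The median log2 change was −0.04 beside 0.01 over all tested genes. Ikzf2 (Helios), a factor of regulatory and intraepithelial T cells, rose to 3.64, 3.55 and 3.69 scaled FPKM in lenvatinib libraries, against 0.431, 0.786 and 0.59 in DMSO libraries (log2 change 1.53, SE 0.12, limma adjusted p = 3.59e-05), and it too was tested only through its lenvatinib libraries. Foxp3, the factor that defines regulatory T cells, was untested at 0.18 ± 0.148 in lenvatinib and 0.241 ± 0.0926 in DMSO libraries. Batf, an AP-1 partner of activated lymphocytes, rose to 41.4 ± 4.87 in lenvatinib libraries, against 28.4 ± 3.65 in DMSO libraries, and Nfil3, which natural killer development requires, to 14.9 ± 0.0823, against 11.6 ± 0.62 in DMSO libraries.

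The factors that fell stood above 1 scaled FPKM in every library, as did Batf and Nfil3, which rose. Ets1, a factor of quiescent lymphocytes, fell to 221 ± 11.7 scaled FPKM in lenvatinib libraries, against 280 ± 7.3 in DMSO libraries (log2 change −0.34, SE 0.04, limma adjusted p = 0.000393). Klf2, a regulator of lymphocyte migration and quiescence, fell to 215 ± 12.9 in lenvatinib libraries, against 257 ± 4.65 in DMSO libraries. Satb1, a chromatin organiser, fell to 62.1 ± 1.1 in lenvatinib libraries, against 71.7 ± 1.56 in DMSO libraries. The remaining 2 were Bcl11a and Runx1, given above.

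**Figure D4:**
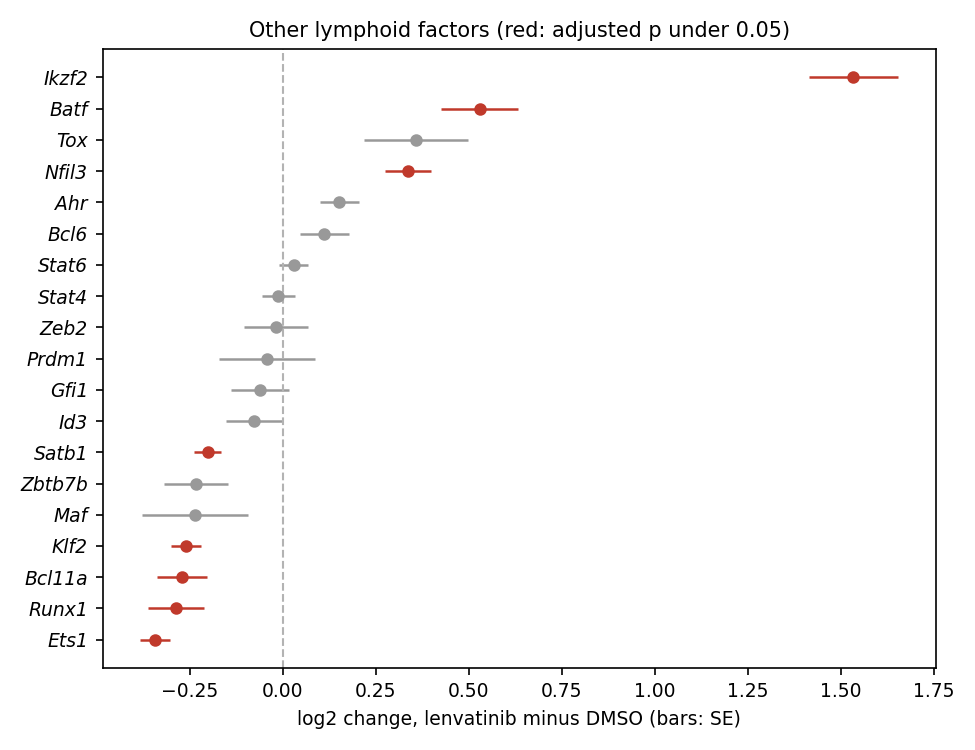
Log2 change, lenvatinib minus DMSO, of the 19 tested other lymphoid factors with bars for the SE, red where the limma adjusted p is under 0.05 and grey otherwise. Ikzf2 stands apart at 1.53, Batf and Nfil3 are the other factors that rose, and Ets1, Runx1, Bcl11a, Klf2 and Satb1 fell.

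Of 18 tested genes for proteins that bind the 9 factors, 2 rose, 2 fell and 14 did not pass, with a median log2 change of 0.0045. The 4 called are a share near the 18.7 percent called among all tested genes. Ctnnb1, which encodes beta-catenin, the partner of Tcf7 and Lef1, rose to 79.8 ± 2.55 scaled FPKM in lenvatinib libraries, against 66.8 ± 1.8 in DMSO libraries (log2 change 0.25, SE 0.039, limma adjusted p = 0.00197). Lmo4, a LIM adaptor, rose to 19.2 ± 1.12 in lenvatinib libraries, against 15.1 ± 1.62 in DMSO libraries. Its relative Lmo2 fell to 62.1 ± 2.21 in lenvatinib libraries, against 69.6 ± 0.777 in DMSO libraries, and the corepressor Ncor1 to 22.7 ± 0.867, against 25.9 ± 0.719 in DMSO libraries. The E proteins that Id2 binds did not pass: Tcf3 was at 29 ± 2.16 in lenvatinib and 29.6 ± 0.347 in DMSO libraries, and Tcf4 and Tcf12 had log2 changes of −0.2 and −0.1 (limma adjusted p = 0.17 and 0.343). Cbfb, the shared partner of Runx proteins, was at 45.1 ± 1.53 in lenvatinib and 41.6 ± 3.59 in DMSO libraries. The number of partner genes called was 1 without lenvatinib replicate 2, and 2 without lenvatinib replicate 1 or any single DMSO library.

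Of 29 listed textbook targets of the factors, 17 were tested, of which 10 rose, 2 fell and 5 did not pass. The median log2 change was 0.43. The genes named below leave out the listed targets of Rora. Among all tested genes 10.4 percent rose and 8.21 percent fell. Il12rb2 had 0 DMSO libraries at 1 or more and was tested only through its lenvatinib libraries. The list holds genes that are themselves markers of T and natural killer cells. The interleukin 2 receptor chain Il2rb, a target of Tbx21 and Eomes, rose to 34.4 ± 0.781 scaled FPKM in lenvatinib libraries, against 8.7 ± 0.296 in DMSO libraries (log2 change 1.87, SE 0.053, limma adjusted p = 4.63e-07). The granule protease Gzmb rose to 15.5 ± 1.22 in lenvatinib libraries, against 3 ± 0.264 in DMSO libraries, and Ifng to 7.34 ± 0.775, against 1.37 ± 0.123 in DMSO libraries. The folds were 3.96 for Il2rb, 5.18 for Gzmb and 5.38 for Ifng, beside 1.76 for Tbx21. Other targets of the T-box factors had lower folds, 1.43 for the pore-forming protein Prf1 (limma adjusted p = 0.0367) and 1.57 for the chemokine receptor Cxcr3, whose groups overlapped (limma adjusted p = 0.154).

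Among the genes that Runx3 regulates, Itgae, the integrin of intraepithelial lymphocytes, rose to 7.13 ± 0.443 scaled FPKM in lenvatinib libraries, against 1.3 ± 0.23 in DMSO libraries. Cd8a, which Runx3 activates, rose to 10.3 ± 1.37 in lenvatinib libraries, against 2.39 ± 0.073 in DMSO libraries. Cd4, which Runx3 silences, was at 1.27 ± 0.188 in lenvatinib and 1.25 ± 0.232 in DMSO libraries (log2 change 0.02, limma adjusted p = 0.946). Thy1, a surface protein listed as a target of Bcl11b, rose to 12.3 ± 1.51 in lenvatinib libraries, against 3.59 ± 0.186 in DMSO libraries. Cd5, another listed target of Bcl11b, was at 1.33 ± 0.118 in lenvatinib and 1.22 ± 0.32 in DMSO libraries (limma adjusted p = 0.737).

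The targets of Tcf7 and Lef1 did not move together. Axin2, a feedback gene of the beta-catenin pathway that was under the filter, stood at 0.706, 0.767 and 0.549 scaled FPKM in lenvatinib libraries and at 0.156, 0.0785 and 0.106 in DMSO libraries. The interleukin 7 receptor gene Il7r rose to 3.18 ± 0.272 in lenvatinib libraries, against 2.11 ± 0.127 in DMSO libraries. Ccr7, a lymph node homing receptor that B cells also express, fell to 540 ± 3.34 in lenvatinib libraries, against 654 ± 3.49 in DMSO libraries (log2 change −0.28, SE 0.022, limma adjusted p = 4.06e-05). Slamf6 was at 19 ± 1.79 in lenvatinib and 20.2 ± 0.85 in DMSO libraries (limma adjusted p = 0.446).

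The cytokine targets of Gata3 had few reads. The reads summed over 3 libraries were 1 in lenvatinib and 0 in DMSO for Il4, 6 in lenvatinib and 0 in DMSO for Il5, and 7 in lenvatinib and 5 in DMSO for Il13. Il1rl1, the interleukin 33 receptor that defines group 2 innate lymphoid cells, stood at 0.109, 0.0277 and 0.194 scaled FPKM in lenvatinib libraries and at 0.0914, 0.129 and 0.188 in DMSO libraries, with the groups overlapping. Areg, a growth factor of these cells, stood at 1.24 ± 0.362 in lenvatinib and 0.433 ± 0.364 in DMSO libraries, without a test. Il17rb, the interleukin 25 receptor, had 86 reads in lenvatinib and 17 in DMSO libraries in all, a 4.91-fold difference of mean scaled FPKM, and its groups did not overlap.

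Markers of innate lymphoid subsets are given as values, and the lists were not compared with each other. Ncr1, the receptor that marks natural killer cells and some group 3 cells, stood at 1.3, 0.461 and 0.702 scaled FPKM in lenvatinib libraries and at 0.33, 0.129 and 0 in DMSO libraries. The summed level of 7 group 3 markers was 42 to 44.4 in lenvatinib libraries and 26.9 to 27.9 in DMSO libraries. Most of that level, though not of the difference, came from Ahr, which B cells also express. Group means of Ahr differed by 2.62 scaled FPKM, those of Kit by 6.58, of Il22 by 3.07 and of Cxcr6 by 2.72. Of the 7 genes, 6 were separated, with lenvatinib higher, beside 13.5 percent of all genes with a value. For the 7 group 2 markers the sum was 13.3 to 15 in lenvatinib libraries and 11.1 to 13.1 in DMSO libraries, most of it from Hpgds, and 3 of the 7 genes were separated, with lenvatinib higher.

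The tested genes whose levels ran most like those of each separated factor over the 6 libraries, members and predicted genes left out, are given as a description. With 6 libraries in 2 groups, many genes reach a high correlation, from 58 genes at a Pearson r of 0.95 or more for Tbx21 to 398 for Id2, out of 9932 compared. The nearest to Id2 were the ectonucleotidase Nt5e (r = 0.9989) and the antimicrobial lectin Reg3b (r = 0.9987). The nearest to Rora were Fcer1g (r = 0.9984), an adaptor of Fc and natural killer receptors, and Mapkapk3 (r = 0.9982). Those nearest to Gata3 were Tyrobp (r = 0.9944), another such adaptor, and Zfp874b (r = 0.9943). Tbx21 ran with Gtpbp3 (r = 0.9925) and the gut-homing receptor Ccr9 (r = 0.9895). Tcf7 ran with Tmx4 and Cd2bp2, Lef1 with Timp2 and Cyp4f13, Runx3 with Haus7 and Syncrip, and Bcl11b with Acat2 and Lime1. None of these nearest genes was shared between factors.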

How the data were processed

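The authors deposited FPKM values, per the file headers and labels, in 1 table with a column per library. HTSeq and GRCm39 are named, without a role, per the submitters' processing notes; aligner, annotation and use of strand are not given in the sources used here, so reads of overlapping or antisense genes cannot be told apart. Sample descriptions name the column that holds each library. FPKM was scaled by median-of-ratios factors (0.992 to 1.009). Genes that reached 1 scaled FPKM in 3 or more libraries were fitted on treatment alone, as log2(scaled FPKM + 1), with trended and robust moderation (limma 3.58.1, R 4.3.3). Tests were two-sided, with Benjamini-Hochberg adjustment over all tested genes and a threshold of 0.05. On this scale a fold understates the change of low genes.

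Read totals were worked out as the value that makes FPKM steps whole to 1e-05, which gave whole reads for 19714 of 19715 genes, and the implied lengths equalled the annotated ones for 13 of 13 mitochondrial genes. The test and the read recovery were tested on simulated data. Replicates differed by more than counting noise, with a mean chi-square of 6.84 to 10.2 per gene between libraries of a group.

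The factors, lists, tests and alternatives were chosen with earlier results of these data known. Named are the 9 factors, up to 6 tested genes of each other list with the smallest p, genes of related pairs, the 2 nearest genes of each separated factor and the defining markers; Foxp3, Tcf3, Tcf12, Cbfb, Ccr7, Cd4, Axin2, Il7r, Slamf6, Prf1, Cxcr3, Il12rb2, the group 2 genes, Ahr, Klrd1, Nkg7 and the other markers named or plotted were chosen after their values were seen. Other pseudocounts (0.1 and 0.5), filters, scalings, a replicate term, unmoderated fits, limma-voom and leaving out each library were tried. A related pair and a target gene are not reported here.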

Additional observations from a re-analysis of the deposited data

How the results depend on the processing

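No result changed direction among the 5 tested factors in any alternative. With a mean scaled FPKM of at least 5, 2 of the factors and 7 targets remained to be tested, and 2 factors and 6 targets were called. Partner genes called numbered 2 without a filter on low values and 2 with neither trend nor robust moderation. Leaving out 1 library gave 2 to 4 factors and 1 to 3 partner genes called. Lef1 was not called with quantile normalization (adjusted p = 0.0587), Runx3 not without a filter (adjusted p = 0.055), and Tbx21 was called with FPKM as deposited (adjusted p = 0.0491), with limma-voom (adjusted p = 0.0461) and without lenvatinib replicate 2 (adjusted p = 0.0403). With a pseudocount of 0.1, the shift of Bcl11b minus Bcl11a was 1.46 and that of Gata3 minus Tbx21 0.32. The other pair shifts kept their sign.

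Replicate numbers did not pair the libraries: deviations of same-numbered libraries correlated at −0.0067, 0.0065 and −0.0053. With a replicate block 3 factors and 1542 genes were called, and Lef1 had an adjusted p of 0.0656. Depth limits Gata3 and Eomes most, at 23 to 106 reads per library.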

Other observations

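The order of the factors by level and by absolute gain depended on the gene length behind FPKM. The lengths implied by the FPKM steps were 12697 bases for Tcf7, 51763 for Rora and 12880 for Bcl11b, against merged exon lengths of 2625, 13071 and 8111 bases in GENCODE M21, an annotation of another build. Per GENCODE length, an alternative chosen after seeing the data, Tcf7 averaged 16.6 in lenvatinib and 4.98 in DMSO libraries, and Rora 1.26 in lenvatinib and 0.478 in DMSO libraries. On that scale Rora reached 1 in 3 libraries, enough to pass the filter, and Tcf7 reached 1 in all 6. Id2 averaged 34.4 in lenvatinib and 23.2 in DMSO libraries on it, and Lef1, at 0.635 in lenvatinib and 0.327 in DMSO libraries, reached 1 in 0 libraries. Runx3 averaged 22.4 in lenvatinib and 19.1 in DMSO libraries on that scale, a smaller absolute gain than that of Tcf7. Folds between the groups are the same under either length.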
